A study of Mus musculus with 12 samples.

Results

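The genes described here encode the protein factors that start and extend translation. They were taken as every gene symbol of the expression tables that begins with Eif and a digit, or with Eef1 or Eef2, which gave 64 of 23183 symbols. RNA was sequenced from hippocampus and prefrontal cortex of male C57BL/6 mice whose abdomen had been irradiated with X-rays, and of non-irradiated control mice. The groups were 3 hippocampus libraries of irradiated mice, 3 of control mice, 3 prefrontal cortex libraries of irradiated mice and 3 of control mice, so 12 libraries from 6 mice. The dose of 13 Gy comes from the names of the irradiated libraries. Tissue was taken in the chronic phase of the gut injury. No source used here gives the time after irradiation or the age of the mice. The beam was aimed at the abdomen, not the head, so the comparison of irradiated with control mice asks what differs in the brain of mice with a chronically injured gut.

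Translation initiation begins when eIF2 carries the initiator tRNA to the small ribosomal subunit, where eIF1, eIF1A and eIF3 hold the complex open for scanning. The eIF4 group brings in the capped mRNA and unwinds it, eIF5 and eIF5B let the large subunit join, and eEF1 and eEF2 then deliver each amino acid and move the ribosome on. Cells set the rate of this process at a few points: 4 kinases phosphorylate eIF2, which blocks its exchange factor eIF2B, the eIF4E binding proteins hold the cap binding factor, and eEF2 kinase slows elongation. In neurons these switches are known for their part in lasting synaptic change and in the integrated stress response. Many mRNAs of translation factors and ribosomal proteins begin with a run of C and T bases, the terminal oligopyrimidine start, and their translation follows mTOR signalling.

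Levels are in FPKM (sequenced fragments corrected for transcript length and library size), a per-length unit in which genes can be set beside each other. Across the 12 libraries 12 members averaged 100 FPKM or more, 40 lay from 10 to under 100, 10 from 1 to under 10, and 2 under 1. The median level of the members was 30.9 FPKM. Eef1a1, the general form of the factor that delivers aminoacyl-tRNA, led with a mean of 1400 FPKM, followed by its muscle and neuron form Eef1a2 at 529 FPKM and the translocase gene Eef2 at 371 FPKM. Eif1 at 298 FPKM, Eif4a2 at 256 FPKM and Eif5a at 212 FPKM were the most abundant initiation factor genes. At the low end stood the kinase gene Eif2ak2 with 1.88 FPKM, Eif4ebp3 with 2.10 FPKM and Eif4ebp1 with 2.84 FPKM. Eif4e1b, a cap binding gene of the oocyte, was listed at 0 in 10 libraries and reached at most 0.0365 FPKM. The members summed to between 1.26% and 1.36% of each library's FPKM total.

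Paralogues and overlapping genes limit what some of these values mean. Eif3j1 averaged 0.0953 FPKM while its near-identical copy Eif3j2 averaged 23.6 FPKM, and the counting could have split reads between them in a way the tables do not show. Eif2s3x and Eif2s3y, the X- and Y-linked copies of the eIF2 gamma subunit, averaged 40.6 and 9.80 FPKM and are close in sequence too. Exons of 4 members overlap another gene on the same strand and those of 11 overlap a gene on the opposite strand, among them Eif3m, Eif2a, Eif4a2, Eef1b2 and Eef2kmt. The library kit marks strand, but no source used here says whether the counting used it.

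Marker genes fitted the labelled regions. Hippocampus libraries summed to between 139.7 and 157.3 FPKM over 5 hippocampal marker genes, against 45.4 to 56.5 FPKM in prefrontal cortex libraries. Over 5 cortical markers they gave 36.4 to 48.2 FPKM, against 140.7 to 171.3 FPKM in prefrontal cortex. The prefrontal cortex libraries also held markers of striatum, at a sum of 416 to 547 FPKM over 6 genes. One hippocampus library stood apart: irradiated mouse 2 had a choroid plexus marker sum of 64.1 FPKM over 6 genes, while the other hippocampus libraries had 3115 to 5833 FPKM, so the counts of members and several of their values are also given without it. Among the prefrontal cortex libraries control mouse 3 had 64.6 FPKM for the same markers, against 3.94 to 6.06 FPKM in the other 5. Endothelial markers summed over 6 genes to 54.9 to 62.1 FPKM in irradiated hippocampus and 27.3 to 37.5 FPKM in control hippocampus, and to 62.3 to 72.6 FPKM in irradiated prefrontal cortex and 52.6 to 55.8 FPKM in control prefrontal cortex. Oligodendrocyte markers ran the other way in both regions, with sums of 1987 to 2111 FPKM in irradiated hippocampus, against 2170 to 2678 FPKM in control hippocampus, and of 1383 to 1527 FPKM in irradiated prefrontal cortex, against 1629 to 1776 FPKM in control prefrontal cortex. Microglial markers summed to 139.3 to 147.7 FPKM in irradiated hippocampus, against 152.2 to 154.7 FPKM in control hippocampus, and overlapped in prefrontal cortex. Markers of blood summed over 4 genes to 49.7 to 85.3 FPKM in irradiated hippocampus, against 41.8 to 43.9 FPKM in control hippocampus, and overlapped in prefrontal cortex. In prefrontal cortex of control mouse 1, 6 nuclear RNAs such as Malat1 summed to 809 FPKM, against 455 and 446 FPKM in the other controls and 368 to 614 FPKM in irradiated mice. That library also had the lowest estimated depth, 0.856 of the median library. In hippocampus the nuclear RNAs summed to 234 FPKM in irradiated mouse 3, against 479 and 622 FPKM in the other irradiated mice and 412 to 524 FPKM in control mice. None of these defining markers was listed at 0 in a library. In several libraries, though, the blood genes Hbb-bs and Hba-a2 were near 0, at about 0.003 and 0.01 FPKM. The part of the markers in the results below was not tested. In bulk tissue, fewer cells of a type and less RNA per cell cannot be told apart.

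No translation factor gene passed the test between irradiated and control hippocampus. The test was limma-trend on log2(FPKM + 1), with Benjamini-Hochberg adjustment over the 12947 genes that averaged 1 FPKM or more, with a threshold of 0.05. Eif3j1 and Eif4e1b fell under that level, so 62 of the 64 members were tested, and 0 passed, beside 0% of all genes tested. The smallest adjusted p of a member was 0.475. Differences of log2(FPKM + 1), irradiated minus control, ran from -0.24 for Eef2kmt to 0.18 for Eif4ebp2, and the 95% confidence intervals of the single members reached from -0.49 to 0.39. At an unadjusted p under 0.05 there were 4 lower members (5.81% of all genes were lower by this rule) and 1 higher member (4.7% of all genes). Without irradiated mouse 2 there were 2 lower members and 1 higher one, and the shares of all genes were not taken in that fit.

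Prefrontal cortex gave the same count. Of 62 members tested 0 passed, beside 0.00786% of all 12729 genes, and the smallest adjusted p of a member was 0.514 in limma. The differences ran from -0.23 for Eif3h to 0.19 for Eif2ak3, and the intervals reached from -0.44 to 0.47. At an unadjusted p under 0.05, 2 members were lower (4.79% of all genes) and 0 were higher (2.44% of all genes). With intervals of this width, small shifts of a member were not detectable with 3 mice against 3.

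Most differences had small negative values. In hippocampus 48 of the 62 members lay below 0, beside 53% of all genes, with a median of -0.07 against -0.01 over all genes. Without irradiated mouse 2, 40 of 62 lay below 0, with a median of -0.05. In prefrontal cortex 37 of 62 lay below 0, beside 48.8% of all genes, with a median of -0.03 against 0.00347. The sign depended on the scaling. With every library set to the same FPKM total, the median of all genes moved to 0.07 in each region, and 22 of 62 members lay below 0 in hippocampus and 23 in prefrontal cortex. The median of the members, 0.02 in hippocampus and 0.05 in prefrontal cortex, was then still below that of all genes. Counts with equal totals in the rest of the text are to be read against this shift. In the same mice, 32 members were below 0 in both regions, 9 were above 0 in both and 21 had opposite signs. The FPKM totals themselves were lower in irradiated mice, at 387367 to 419823 in irradiated and 417801 to 435534 in control hippocampus, and at 381417 to 406369 in irradiated and 416042 to 420431 in control prefrontal cortex. The sum over 82 ribosomal protein genes was 26783 to 35212 FPKM in irradiated and 33284 to 40310 FPKM in control hippocampus, and 22272 to 30683 FPKM in irradiated and 32585 to 35611 FPKM in control prefrontal cortex.

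**Figure D1:**
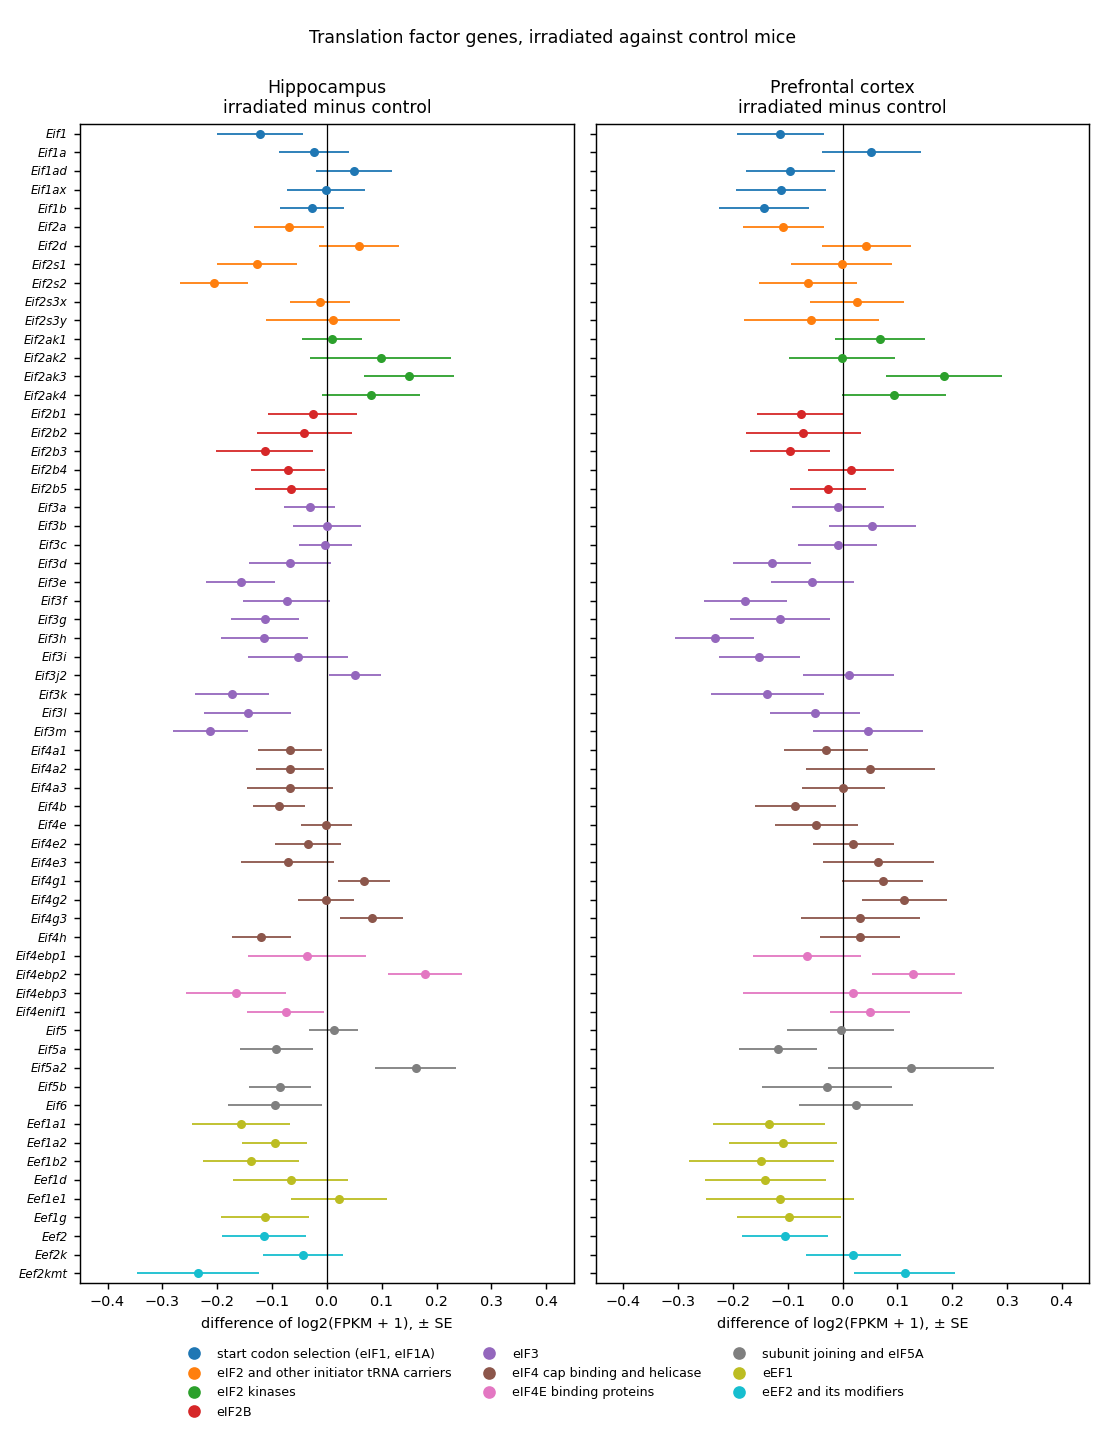
Difference of log2(FPKM + 1), irradiated minus control, for the 62 tested members in hippocampus (left) and prefrontal cortex (right), with points for the estimate and bars for its SE, coloured by complex. 48 points lie below 0 in hippocampus and 37 in prefrontal cortex, and 0 passed the adjusted test in either region; with equal FPKM totals, which put the median of all genes at 0.07 in each region, 22 and 23 lie below 0.

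The eIF2 complex, which brings the initiator tRNA, had the member with the smallest unadjusted p in hippocampus. Eif2s2, its beta subunit, was at 28.3, 26.5 and 30.2 FPKM in irradiated hippocampus, against 33.6, 33.2 and 31.5 FPKM in control hippocampus. All irradiated libraries were below all control libraries. The difference was -0.21 (SE 0.061, 95% interval -0.35 to -0.06, limma adjusted p = 0.475), and without irradiated mouse 2 it was -0.16 (limma adjusted p = 0.787). Its unadjusted p was under 0.05 with any 1 of the 6 hippocampus libraries left out. With equal FPKM totals the unadjusted p was not under 0.05. In prefrontal cortex Eif2s2 gave 29.2, 24.5 and 28.3 FPKM in irradiated mice, against 31.2, 26.8 and 27.7 FPKM in control mice, with overlapping groups and a difference of -0.06. The alpha subunit Eif2s1, the one that the stress kinases phosphorylate, was at 11.7, 11.4 and 12.3 FPKM in irradiated hippocampus, against 12.8, 12.0 and 14.2 FPKM in control hippocampus. Its groups overlapped. The gamma subunit genes showed differences between -0.06 and 0.03 in both regions. Eif2a and Eif2d, which can place initiator tRNA without eIF2, were at -0.07 and 0.06 in hippocampus and -0.11 and 0.04 in prefrontal cortex. Of the 6 genes of this list 4 lay below 0 in each region. With equal FPKM totals 2 did so in hippocampus and 1 in prefrontal cortex.

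The 4 kinases of eIF2 stood on the other side of 0. All 4 were above 0 in hippocampus, with a median of 0.09, and 3 of 4 in prefrontal cortex, with a median of 0.08. With equal FPKM totals all 4 were above 0 in each region. Their longest transcripts run from 4313 to 5298 bases, and all genes of 4000 bases or more had a median of 0.04 in each region. With a smooth trend on transcript length removed, the counts stayed the same, with medians of 0.07 and 0.06. Eif2ak3, which encodes PERK, the kinase of the endoplasmic reticulum stress response, was at 6.48, 7.51 and 6.29 FPKM in irradiated hippocampus, against 5.77, 6.27 and 5.91 FPKM in control hippocampus. In prefrontal cortex it was at 7.84, 7.76 and 7.62 FPKM in irradiated mice, against 5.55, 7.10 and 7.56 FPKM in control mice. The groups did not overlap in either region, although the gap to the highest control library was narrow in both. The differences were 0.15 (SE 0.081, limma adjusted p = 0.527) in hippocampus and 0.19 (SE 0.11, limma adjusted p = 0.779) in prefrontal cortex, so neither passed the test. In prefrontal cortex the size rested on control mouse 1, the library with the highest nuclear RNA sum. Without it the difference was 0.07, and in hippocampus the difference was 0.08 without irradiated mouse 2. Eif2ak2, the double-stranded RNA sensor PKR, was lowest in irradiated mouse 2 among the hippocampus libraries. It reached 2.52, 1.72 and 2.74 FPKM in irradiated hippocampus, against 1.99, 2.13 and 2.13 FPKM in control hippocampus. Its difference was 0.10, and 0.24 without that mouse (limma adjusted p = 0.787), where it was the 1 higher member at an unadjusted p under 0.05. Eif2ak4, the amino acid sensor GCN2, had differences of 0.08 and 0.09, and Eif2ak1, the heme sensor, of 0.01 and 0.07, in hippocampus and prefrontal cortex.

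All 5 eIF2B subunit genes, whose product recharges eIF2 with GTP, were below 0 in hippocampus (median -0.07) and 4 of 5 in prefrontal cortex (median -0.07). With equal FPKM totals only 1 and 2 of the 5 were. The differences ran from -0.11 for Eif2b3 to -0.03 for Eif2b1 in hippocampus and from -0.10 for Eif2b3 to 0.01 for Eif2b4 in prefrontal cortex. Eif2b3 was at 8.80, 9.52 and 9.05 FPKM in irradiated prefrontal cortex, against 9.89, 9.63 and 9.92 FPKM in control prefrontal cortex, so its groups did not overlap there. Its smallest adjusted p in limma over both regions was 0.613. Transcripts of the integrated stress response are known to follow phosphorylation of eIF2, and 16 such targets, Atf4, Ddit3 and Asns among them, were read from the same fits. Of the 14 tested, 0 passed in either region. At an unadjusted p under 0.05, 1 was lower in hippocampus (5.81% of all genes), and 1 was higher (2.44% of all genes) and 2 were lower (4.79% of all genes) in prefrontal cortex.

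These targets did not share a direction. In hippocampus 7 of the 14 tested were below 0 (53% of all genes), with a median of 0.01 against -0.01 over all genes. In prefrontal cortex 9 of 14 were below 0 (48.8% of all genes), with a median of -0.10 against 0.00347. Asns, which makes asparagine, averaged 55.1 ± 1.2 FPKM in prefrontal cortex of irradiated mice and 46.8 ± 0.44 FPKM in that of control mice (SD, n = 3 each), a difference of 0.23 (SE 0.062, limma adjusted p = 0.461). Nupr1, a stress-induced chromatin protein gene, averaged 12.1 ± 1.7 FPKM in irradiated and 18.7 ± 3.5 FPKM in control prefrontal cortex (SD, n = 3 each), a difference of -0.57 (SE 0.14, limma adjusted p = 0.421). In hippocampus Nupr1 had the opposite sign, at 0.43, and the difference between the regions was 1.00 (SE 0.27, limma adjusted p = 0.9998). Phgdh and Psat1, enzymes of serine synthesis, were at -0.16 and -0.18 in hippocampus and at -0.23 and -0.16 in prefrontal cortex.

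eIF3, the scaffold of the initiation complex and the largest of the factors, held 3 of the 4 lower members of hippocampus at an unadjusted p under 0.05 and both of those in prefrontal cortex, though not the same genes. By this rule 5.81% of all genes were lower in hippocampus and 4.79% in prefrontal cortex, and eIF3 made up 13 of the 62 tested members. Eif3m was at 46.8, 48.9 and 53.4 FPKM in irradiated hippocampus, against 61.9, 56.3 and 55.0 FPKM in control hippocampus, with no overlap. The difference was -0.21 (SE 0.069, limma adjusted p = 0.475), and -0.20 without irradiated mouse 2. In prefrontal cortex Eif3m ran from 43.5 to 58.5 FPKM in irradiated mice and from 48.1 to 49.7 FPKM in control mice. Exons of Eif3m overlap the opposite-strand gene Ccdc73, so its value also depends on how strand was handled. Eif3k, a subunit at the edge of the complex, was at 100.4, 96.5 and 109.7 FPKM in irradiated hippocampus, against 122.6, 110.5 and 112.7 FPKM in control hippocampus, again with no overlap (difference -0.17, SE 0.067, limma adjusted p = 0.475). Eif3e gave 63.0, 59.5 and 68.3 FPKM in irradiated hippocampus, against 73.1, 71.4 and 68.2 FPKM in control hippocampus. The highest irradiated library lay just above the lowest control library. Without irradiated mouse 2 the differences of Eif3k and Eif3e were -0.13 and -0.11, and neither kept an unadjusted p under 0.05. With equal FPKM totals, none of Eif3m, Eif3k and Eif3e had an unadjusted p under 0.05 in hippocampus.

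In prefrontal cortex the lower members were Eif3h and Eif3f, the subunits of the complex with an MPN domain. Eif3h was at 97.4, 94.4 and 103.5 FPKM in irradiated mice, against 118.5, 109.8 and 119.3 FPKM in control mice. Every irradiated library was below every control library, the difference was -0.23 (SE 0.071, limma adjusted p = 0.514), and its unadjusted p stayed under 0.05 with any 1 of the 6 prefrontal libraries left out. Eif3f was at 89.2, 79.3 and 88.8 FPKM in irradiated mice, against 100.9, 92.0 and 98.2 FPKM in control mice, with a difference of -0.18 (SE 0.076, limma adjusted p = 0.655). Its unadjusted p was under 0.05 in only 1 of the 6 fits that left out a library, the one without control mouse 2. With equal FPKM totals Eif3h kept an unadjusted p under 0.05 and Eif3f did not. In hippocampus, values of Eif3h and Eif3f overlapped between the groups, at differences of -0.11 and -0.07. Over the 13 eIF3 genes tested, 12 were below 0 in hippocampus (median -0.07) and 10 in prefrontal cortex (median -0.06). With equal FPKM totals 6 of 13 were below 0 in each region. The large core subunits Eif3a, Eif3b and Eif3c stayed close to 0, between -0.03 and 0.05, in both regions.

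**Figure D2:**
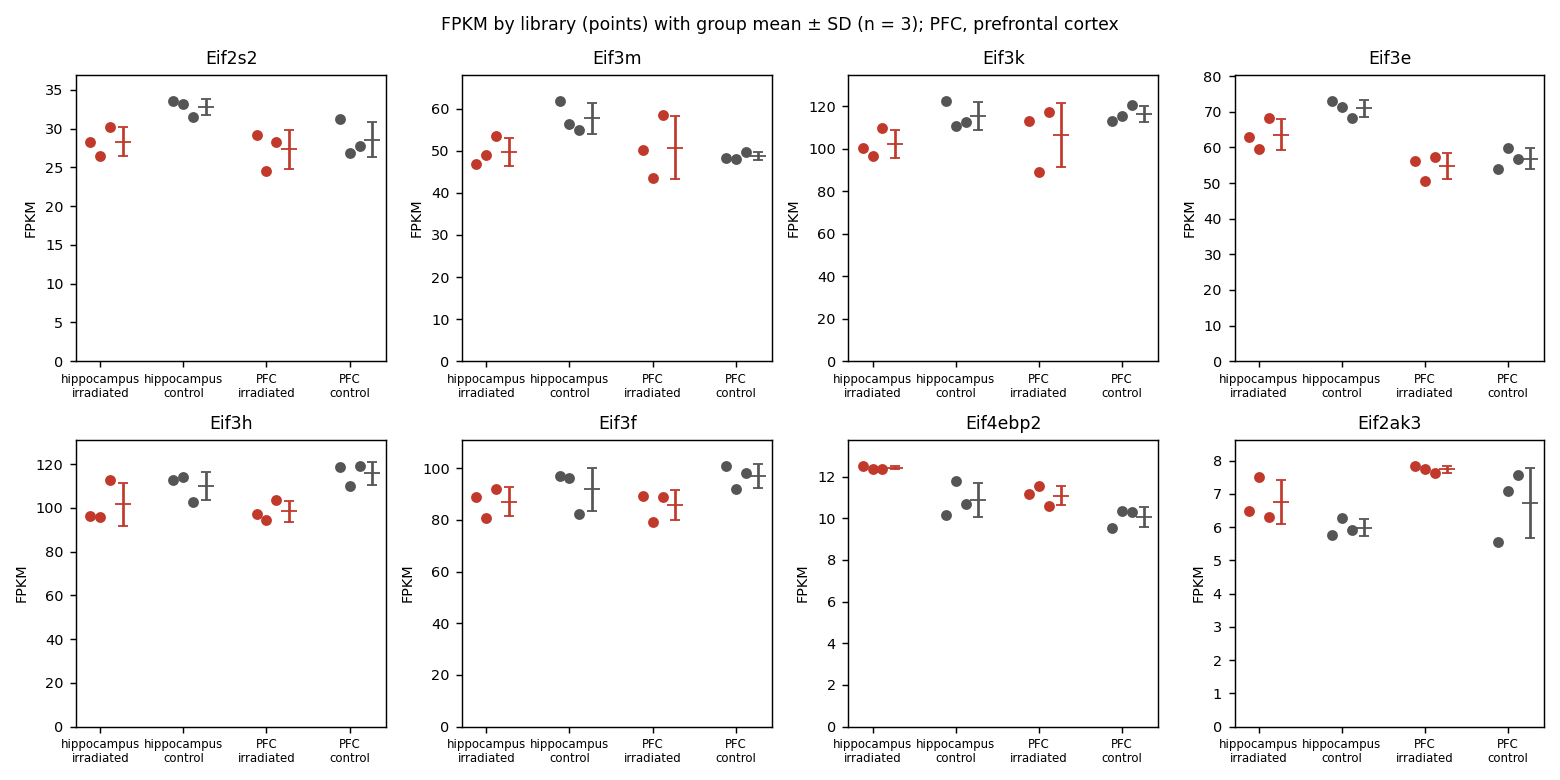
FPKM in each library for 8 members, with irradiated libraries in red left of control libraries in grey in each region, and group mean ± SD (n = 3) beside the points. Eif2s2, Eif3m and Eif3k do not overlap between irradiated and control hippocampus, Eif3h and Eif3f do not overlap in prefrontal cortex, and Eif4ebp2 and Eif2ak3 do not overlap in either region.

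Among the genes of factors that read the mRNA cap, none had an unadjusted p under 0.05 in the test described above. Eif4e, the cap binding protein gene, averaged 37.6 ± 0.34 FPKM in irradiated and 37.7 ± 0.83 FPKM in control hippocampus (SD, n = 3 each), a difference of -0.0008. The helicase gene Eif4a1 had differences of -0.07 in hippocampus and -0.03 in prefrontal cortex. Its neuron-rich paralogue Eif4a2 had -0.07 and 0.05. The scaffold genes Eif4g1 and Eif4g3 were slightly above 0 in both regions, between 0.03 and 0.08. Eif4g2, a scaffold that works without the cap binding protein, was at 76.7, 75.0 and 77.5 FPKM in irradiated prefrontal cortex, against 64.0, 73.6 and 74.6 FPKM in control prefrontal cortex, so the groups stood just apart. Its difference was 0.11, and 0.04 without control mouse 1. Eif4h, which helps the helicase, was at 130.3, 126.8 and 131.4 FPKM in irradiated hippocampus, against 147.6, 140.2 and 134.7 FPKM in control hippocampus (difference -0.12, SE 0.054, limma adjusted p = 0.481). Of the 11 genes tested in this list, 9 were below 0 in hippocampus (median -0.07) and 3 in prefrontal cortex (median 0.03). With equal FPKM totals the counts were 2 and 1, at medians of 0.02 and 0.11.

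Among the repressors of the cap binding protein, Eif4ebp2, the form known as the main one in brain, was the only member with a positive difference at an unadjusted p under 0.05 in hippocampus. It was at 12.5, 12.4 and 12.4 FPKM in irradiated hippocampus, against 10.2, 11.8 and 10.7 FPKM in control hippocampus. The difference was 0.18 (SE 0.067, 95% interval 0.02 to 0.33, limma adjusted p = 0.475), and 0.18 without irradiated mouse 2 (limma adjusted p = 0.787). The unadjusted p of Eif4ebp2 was under 0.05 in only 1 of the 6 fits that left out a library, the one without control mouse 2. It was under 0.05 with equal FPKM totals, but not with a smooth trend on transcript length removed. In prefrontal cortex it was at 11.2, 11.5 and 10.6 FPKM in irradiated mice, against 9.51, 10.4 and 10.3 FPKM in control mice (difference 0.13, SE 0.075, limma adjusted p = 0.779). Every irradiated library was above every control library in both regions. The ratio of Eif4e to Eif4ebp2 was 3.02 to 3.04 in irradiated and 3.23 to 3.61 in control hippocampus, and 3.12 to 3.66 in irradiated and 3.75 to 3.97 in control prefrontal cortex. With Eif4e at -0.0008 in hippocampus, the ratio there restates the difference of Eif4ebp2. This pair was not among the fixed paralogue pairs. Eif4ebp1 ran from 1.88 to 3.71 FPKM and Eif4ebp3 from 1.19 to 3.14 FPKM over the 12 libraries, low levels at which a log2(FPKM + 1) difference understates the change. In hippocampus Eif4ebp3 ran from 1.76 to 1.86 FPKM in irradiated mice, against 1.97 to 2.37 FPKM in control mice. Eif4enif1, which carries the cap binding protein into the nucleus, was at -0.08 and 0.05. Of the 4 genes of this list 3 were below 0 in hippocampus and 1 in prefrontal cortex; with equal FPKM totals 1 was in each region.

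Counted over all complexes, 9 members were lower without overlap in hippocampus (Eef1a1, Eef1a2, Eif2s2, Eif3k, Eif3m, Eif4b, Eif4ebp3, Eif4h and Eif5b), beside 8.16% of all genes, and 3 were higher without overlap (Eif2ak3, Eif3j2 and Eif4ebp2), beside 7.41%. In prefrontal cortex 6 were lower without overlap (Eif2b3, Eif3d, Eif3f, Eif3h, Eif3i and Eif5a), beside 7.44% of all genes, and 3 were higher (Eif2ak3, Eif4ebp2 and Eif4g2), beside 6.25%. Eif2ak3 and Eif4ebp2 were higher without overlap in both regions, and no member was lower without overlap in both. The share of all genes that stood apart in both regions was not taken, so this count has no background.

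At the steps that select the start codon and join the subunits, no gene had an unadjusted p under 0.05 in the test described above. Eif1, the start codon fidelity factor, was at 267.1, 267.1 and 316.3 FPKM in irradiated hippocampus, against 312.8, 312.7 and 298.0 FPKM in control hippocampus. The irradiated library of mouse 3 was the highest of all 6. The X-linked Eif1ax and its autosomal copy Eif1a were at -0.002 and -0.02 in hippocampus and -0.11 and 0.05 in prefrontal cortex. Eif1b was at -0.03 in hippocampus and -0.14 in prefrontal cortex (SE 0.082, limma adjusted p = 0.779). Without control mouse 1, Eif1b and Eif1ax were at -0.20 and -0.19 in prefrontal cortex, each with an unadjusted p under 0.05 (limma adjusted p = 0.524 and 0.506). Of the 5 genes with an Eif1 symbol 4 were below 0 in each region (median -0.02 in hippocampus and -0.11 in prefrontal cortex). With equal FPKM totals 1 was below 0 in hippocampus and 4 in prefrontal cortex, at medians of 0.06 and -0.04. Eif5, the GTPase activator of eIF2, was at 0.01 and -0.004. Eif5a, which helps ribosomes past proline stretches and carries hypusine, averaged 206.9 ± 11 FPKM in irradiated and 220.6 ± 13 FPKM in control hippocampus, and 202.4 ± 5.0 FPKM in irradiated and 219.7 ± 10 FPKM in control prefrontal cortex (SD, n = 3 each). Its paralogue Eif5a2 had the opposite sign, with 17.3, 17.4 and 16.0 FPKM in irradiated hippocampus, against 13.7, 15.1 and 16.3 FPKM in control hippocampus (difference 0.16, SE 0.074, limma adjusted p = 0.486). In prefrontal cortex Eif5a2 rested on 1 library: irradiated mice had 17.0, 16.7 and 17.1 FPKM, against 11.3, 18.3 and 17.7 FPKM in control mice, and without control mouse 1 the difference of 0.12 turned to -0.08. Of the 5 joining and eIF5A genes 3 were below 0 in each region, and with equal FPKM totals 3 in hippocampus and 1 in prefrontal cortex.

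Of the elongation list, all 6 genes with an Eef1 symbol were below 0 in prefrontal cortex (median -0.12) and 5 of 6 in hippocampus (median -0.10). They were grouped by symbol, not by a shown place in the complex. With equal FPKM totals 6 and 4 were below 0, at medians of -0.05 and -0.02. Eef1a1 was at 1476, 1338 and 1566 FPKM in irradiated hippocampus, against 1688, 1609 and 1577 FPKM in control hippocampus, with no overlap (difference -0.16, SE 0.089, limma adjusted p = 0.532, and -0.10 without irradiated mouse 2). In prefrontal cortex it was at 1257, 1049 and 1302 FPKM in irradiated mice, against 1313, 1290 and 1341 FPKM in control mice, and the groups overlapped by 1 library (difference -0.13, SE 0.10, limma adjusted p = 0.83). Eef1a2 was at 473.9, 451.8 and 467.0 FPKM in irradiated hippocampus, against 509.4, 500.8 and 478.4 FPKM in control hippocampus. The exchange factor genes Eef1b2 and Eef1g were at -0.14 and -0.11 in hippocampus and at -0.15 and -0.10 in prefrontal cortex. Eef2 averaged 359.4 ± 19 FPKM in irradiated and 389.7 ± 30 FPKM in control hippocampus, and 353.6 ± 7.2 FPKM in irradiated and 380.9 ± 26 FPKM in control prefrontal cortex (SD, n = 3 each), and its kinase gene Eef2k was within 0.05 of 0 in both regions. Eef2kmt, the methyltransferase of eEF2, was at 3.95, 2.90 and 3.69 FPKM in irradiated hippocampus, against 4.69, 4.32 and 3.88 FPKM in control hippocampus (difference -0.24, SE 0.11, limma adjusted p = 0.494, and -0.13 without irradiated mouse 2). Eef2, Eef2k and Eef2kmt were all below 0 in hippocampus and 1 of the 3 in prefrontal cortex, and with equal FPKM totals 2 and 1 of them were.

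The ratio of the 2 eEF1A genes, a known mark of the switch from the general to the neuronal form, depended on the region. Eef1a1 over Eef1a2 was 3.14 ± 0.20 in irradiated and 3.28 ± 0.054 in control hippocampus, and 2.17 ± 0.31 in irradiated and 2.21 ± 0.27 in control prefrontal cortex (SD, n = 3 each). The lowest hippocampus library, at 2.96, was above the highest prefrontal cortex library, at 2.43. Between irradiated and control mice the ratios overlapped in both regions.

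**Figure D3:**
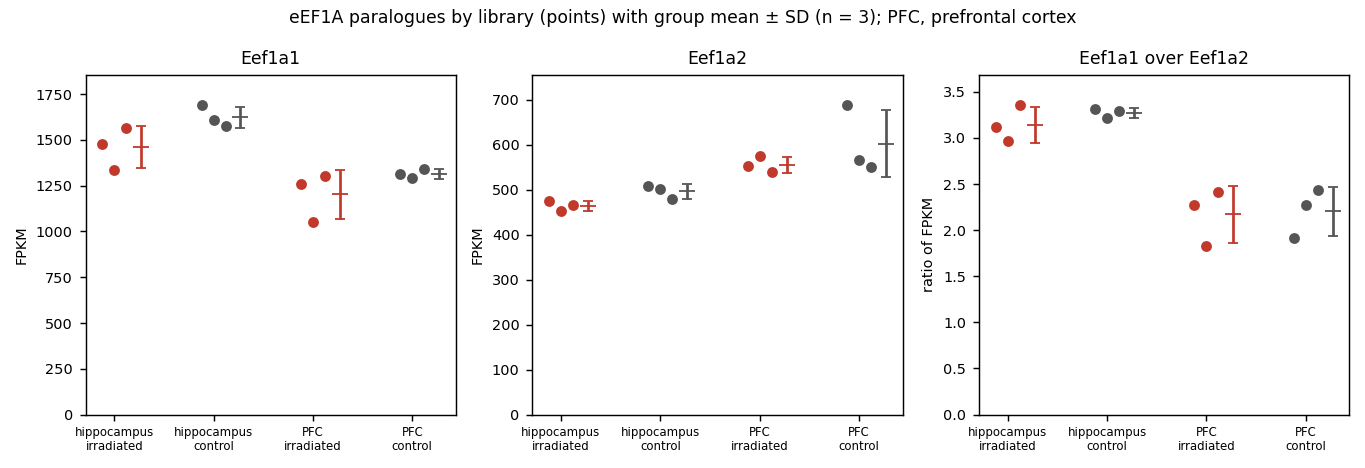
FPKM of Eef1a1 and Eef1a2 and their ratio in each library, irradiated (red) left of control (grey) in each region, with group mean ± SD (n = 3). Hippocampus libraries have ratios of 2.96 to 3.35 and prefrontal cortex libraries of 1.82 to 2.43, with irradiated and control libraries overlapping in both regions.

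Members known in mammals to have a terminal oligopyrimidine start (Eef1a1, Eef1b2, Eef1d, Eef1g, Eef2, Eif3e, Eif3f, Eif3h and Eif4b) were read as a list. The list was set with earlier results of these data known and need not hold every such member. All 9 were below 0 in hippocampus (median -0.11, between -0.16 and -0.07) and all 9 in prefrontal cortex (median -0.13, between -0.23 and -0.06). With equal FPKM totals 7 were below 0 in hippocampus and 8 in prefrontal cortex, with medians of -0.03 and -0.06. Eif2s3x is not on the list but had a run of C or T bases near its start in the search described below. Its differences were -0.01 in hippocampus and 0.03 in prefrontal cortex. The list was described and not tested, and the summed ribosomal protein genes, which have the same kind of start, were lower in irradiated mice in prefrontal cortex without overlap and in hippocampus with overlap. Abundance says nothing of how much of each mRNA was being translated.

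Transcript length ran alongside the sign of the differences. Members whose longest transcript is under 2000 bases had a median of -0.11 in hippocampus, with 15 of 15 below 0, and all genes of that length had -0.09. Members from 2000 to under 4000 bases had a median of -0.07 (30 members, all genes -0.02), and those of 4000 bases or more 0.01 (17 members, all genes 0.04). In prefrontal cortex the same classes gave -0.11, -0.03 and 0.02, beside -0.08, -0.01 and 0.04 over all genes. With a smooth trend on length removed, the medians of the members in hippocampus were -0.02, -0.03 and -0.0005, and in prefrontal cortex -0.04, -0.01 and -0.01. With this trend removed, 41 of 62 members in hippocampus and 37 of 62 in prefrontal cortex lay below 0, and so did all 9 members of the terminal oligopyrimidine list in each region. In hippocampus 3 of 5 eIF2B genes, 10 of 13 eIF3 genes, 2 of 5 Eif1 genes and 2 of 4 eIF4E binding protein genes then lay below 0. In prefrontal cortex 3 of 6 genes of the eIF2 list, 9 of 13 of eIF3, 4 of 11 of eIF4 and 2 of 3 of the eEF2 list did. The other complex lists kept their counts in each region. Of the 17 members of 4000 bases or more, 8 were below 0 in each region before that removal, among them Eif2s2 (4102 bases), Eif3e (4123 bases) and Eif5b (7797 bases) in hippocampus. The part of length in the differences was not tested.

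**Figure D4:**
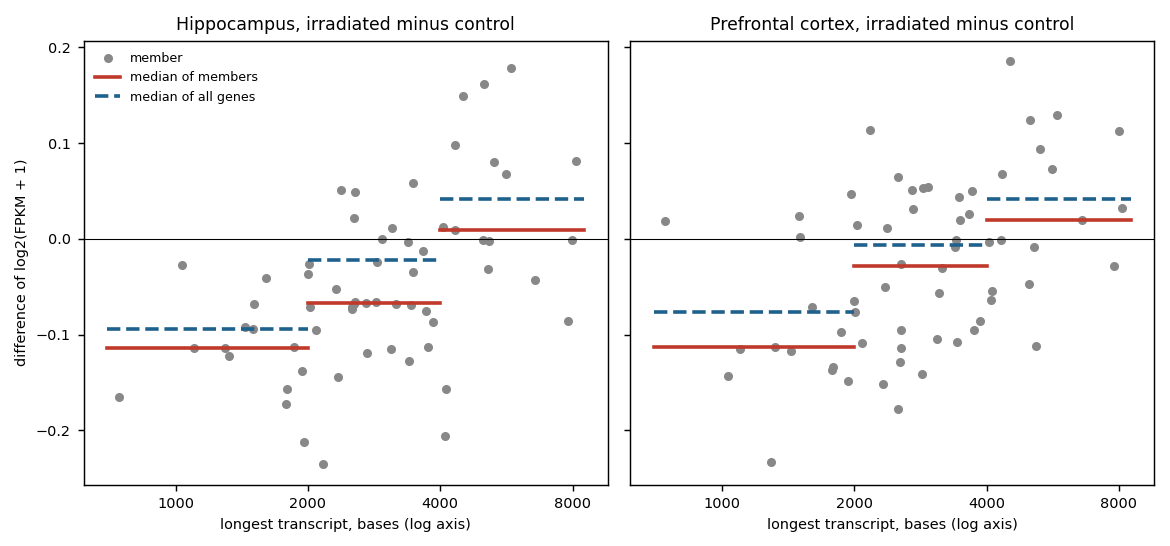
Difference of log2(FPKM + 1), irradiated minus control, against the longest transcript of each member in bases (log axis), in hippocampus (left) and prefrontal cortex (right); grey points are members, red lines the members' medians by length class and dashed blue lines those of all genes. Medians of members run from -0.11 under 2000 bases to 0.01 in hippocampus and 0.02 in prefrontal cortex at 4000 bases or more.

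Whether irradiation went with different values in the 2 regions was tested as an interaction over all 12 libraries. Of 62 members 0 passed, beside 0% of 12894 genes, with limma adjusted p-values close to 1. At an unadjusted p under 0.05 there was 1 member with a lower difference in hippocampus than in prefrontal cortex, Eef2kmt (1.35% of all genes), and 0 with a higher one (1.92% of all genes). Its difference was -0.24 in hippocampus and 0.11 in prefrontal cortex, where it was at 3.37, 3.30 and 3.71 FPKM in irradiated mice, against 2.94, 3.03 and 3.41 FPKM in control mice. The interaction was -0.35 (SE 0.14, limma adjusted p = 0.9998). Eif3m came next to it with -0.26 (SE 0.13, limma adjusted p = 0.9998).

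Between the regions some members did pass the test. In control mice 7 of 62 members were higher in hippocampus than in prefrontal cortex (15.7% of all genes) and 2 were lower (14.6% of all genes), at adjusted p under 0.05 in limma. The higher ones were Eef2kmt (0.36), Eif3e (0.32), Eef1a1 (0.31), Eif1b (0.29), Eif2ak2 (0.27), Eif3m (0.24) and Eif4a1 (0.23), and the lower ones Eif4ebp1 (-0.43) and Eef1a2 (-0.27). Eef1a1 was at 1688, 1609 and 1577 FPKM in hippocampus, against 1313, 1290 and 1341 FPKM in prefrontal cortex of control mice (limma adjusted p = 0.00571). Eef1a2 was at 509.4, 500.8 and 478.4 FPKM in hippocampus, against 687.4, 566.4 and 551.5 FPKM in prefrontal cortex (limma adjusted p = 0.0441). Eif3e was at 73.1, 71.4 and 68.2 FPKM in hippocampus, against 53.8, 59.7 and 56.8 FPKM in prefrontal cortex (limma adjusted p = 0.00468). Eif4ebp1 was at 2.57, 2.22 and 2.20 FPKM in hippocampus, against 3.14, 3.71 and 3.64 FPKM in prefrontal cortex (limma adjusted p = 0.00874). None of these 4 overlapped between the regions.

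Irradiated mice gave a separate set of mice for the same region contrast, added after the control mice had been tested. There 1 member was higher in hippocampus (13.9% of all genes), Eif1b at 0.40, and 4 were lower (15.3% of all genes), Eif4ebp1 at -0.40, Eef1a2 at -0.26, Eif4g3 at -0.24 and Eif4h at -0.21. Eif1b, a paralogue of Eif1, was at 122.7, 115.7 and 127.8 FPKM in hippocampus, against 96.2, 84.9 and 95.3 FPKM in prefrontal cortex of irradiated mice, and at 129.2, 124.4 and 119.6 FPKM against 94.0, 103.0 and 108.7 FPKM in control mice. Eif1b, Eef1a2 and Eif4ebp1 passed in both sets of mice with the same sign, and 8 of the 9 members that passed in control mice had the same sign in irradiated mice. Eif3m was the exception, at -0.02, and Eef2kmt was at 0.01. The calls in control mice fell when a mouse was left out, and so did those over all genes. With all control mice 3922 genes passed, and 3272, 2269 and 2742 did without control mouse 1, 2 and 3. Of the 9 members, 1 (Eif3e) passed without control mouse 2 and 4 passed without control mouse 3. Without control mouse 1, 4 of the 9 did (Eef1a1, Eif1b, Eif3e and Eif4ebp1), and 3 other members passed (Eif2s2, Eif4e3 and Eif5b). With the mouse as a block, Eif2ak2 no longer passed (limma adjusted p = 0.0709) and Eif4g3 did (-0.29, limma adjusted p = 0.0452).

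**Figure D5:**
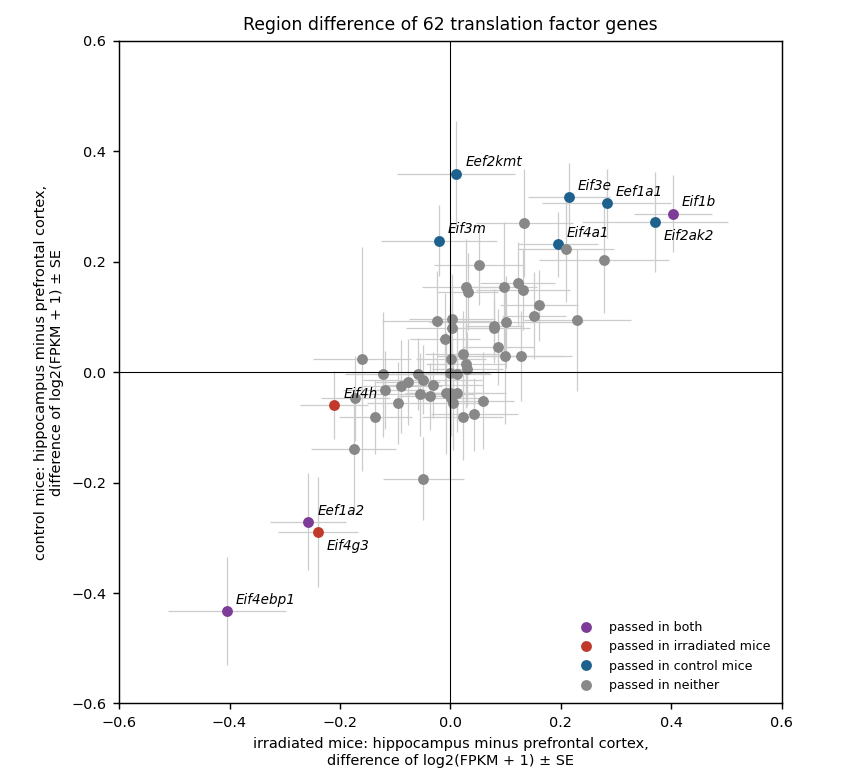
Region difference of log2(FPKM + 1), hippocampus minus prefrontal cortex, in irradiated mice (horizontal axis) and control mice (vertical axis) for 62 members, with SE bars; colours mark the members that passed an adjusted p of 0.05. Eif1b lies in the upper right and Eef1a2 and Eif4ebp1 in the lower left, passed in both, while Eif3m and Eef2kmt are at 0.24 and 0.36 in control mice and at -0.02 and 0.01 in irradiated mice.

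Other translation genes were read from lists beside the members. Of 9 release and recycling factor genes, 23 genes of mRNA binding and signalling to initiation and 10 mitochondrial translation factor genes, 0 passed in either region between irradiated and control mice. Rps6, a ribosomal protein that S6 kinase phosphorylates, averaged 222.5 ± 24 FPKM in irradiated and 257.6 ± 19 FPKM in control hippocampus (SD, n = 3 each), a difference of -0.21 (SE 0.092, limma adjusted p = 0.475). Tsfm, the mitochondrial elongation factor Ts, was at -0.17 in hippocampus and 0.13 in prefrontal cortex, and the mitochondrial release factor gene Mtrf1 at -0.17 and -0.04. Mcts2, a recycling factor gene, averaged 7.46 ± 0.11 FPKM in irradiated and 9.45 ± 1.2 FPKM in control prefrontal cortex (SD, n = 3 each), a difference of -0.30 (SE 0.096, limma adjusted p = 0.527). Between the regions of control mice, all 9 release and recycling genes were above 0 (50.9% of all genes), and 2 of them passed, beside 15.7% of all genes: Mcts1 (0.33) and Abce1 (0.27) were higher in hippocampus than in prefrontal cortex (limma adjusted p = 0.00475 and 0.0129).

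Start sites were read from RefSeq promoter windows of GRCm38.p6, 250 bases before to 50 after each annotated start, which were at hand for 50 of the 64 members. The first 3 motifs were searched on both strands. The heptamer CCGGAAG, the core that ETS factors bind, was in a window of 17 of the 50 members (34%), against 19.1% of the 9860 tested genes with a window and 9.93% of all 27025 genes with one. TATANAA, the letters of a TATA box, was found for 5 members (10%), namely Eef1a1, Eef2, Eif1, Eif2s3y and Eif3c, against 6.4% of tested genes and 13.2% of all genes. The interferon response core, GAAA repeated after a gap of any 2 bases, was found for 4 members (8%), against 3.45% of tested genes, and a run of at least 15 C or T bases on the gene's strand near the start, from 10 before to 30 after it, for Eif3f and Eif2s3x (4%), against 1.49% of tested genes. A match describes the letters only, and no motif was tied to a difference between groups.

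These stretches are shown because they hold such a match in a member described above, with the match in capitals, 5′ to 3′ on the gene's strand. The first base of the match lies 15 bases before the annotated start in Eef2, 55 before it in Eif3m, 4 before it in Eif3f and 5 before it in Eif2s3x, and at base 24 after it in Eef1a1, 8 in Eif1, 2 in Eef1b2 and Eif2b4 and 19 in Eif2ak2, counted from the start as base 1.
Eef1a1 (TATA letters, chr9:78481695-78481723, minus strand): tcccgagggtgggggagaacggTATATAA
Eef2 (TATA letters, chr10:81176594-81176644, plus strand): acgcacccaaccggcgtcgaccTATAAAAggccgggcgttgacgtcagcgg
Eif1 (TATA letters, chr11:100319934-100319978, plus strand): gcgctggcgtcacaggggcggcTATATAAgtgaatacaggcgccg
Eif3m (ETS core, chr2:105017054-105017104, minus strand): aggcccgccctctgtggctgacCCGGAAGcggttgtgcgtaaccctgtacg
Eef1b2 (ETS core, chr1:63176810-63176860, plus strand): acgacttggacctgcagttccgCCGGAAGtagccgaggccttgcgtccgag
Eif2b4 (ETS core, chr5:31193110-31193160, minus strand): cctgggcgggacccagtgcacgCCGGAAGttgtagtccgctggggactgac
Eif2ak2 (interferon response core, chr17:78882543-78882576, minus strand): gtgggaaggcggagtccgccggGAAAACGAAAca
Eif3f (C and T run, chr7:108934389-108934444, plus strand): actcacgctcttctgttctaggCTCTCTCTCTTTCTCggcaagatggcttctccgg
Eif2s3x (C and T run, chrX:94212622-94212678, minus strand): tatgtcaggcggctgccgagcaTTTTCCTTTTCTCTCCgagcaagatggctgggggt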

How the data were processed

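Each of the 12 libraries came as a deposited table of gene symbols with 1 value per gene. Trizol and a directional NEBNext Ultra II kit were used for RNA and libraries, per the labels' protocols, and all libraries carry 1 batch label. The submitters' processing notes name TopHat and mm10 but no version. No source used here names the counter, the annotation or the use of strand. The deposited tables name no unit: their values were taken as FPKM, since they are not whole, their sums differ between libraries, and value times transcript length in kilobases summed to between 1200000 and 1248000 per library. RPKM would look alike. Depth was estimated from the steps of 1697 low genes: relative to the median library it was 0.856 to 1.02, and counting errors per gene cannot be given.

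Positions, lengths and overlaps are from GENCODE M21 (22148 of 23183 symbols matched, all 64 members among them). limma 3.58.1 in R 4.3.3 was run with a mean-variance trend on log2(FPKM + 1) for genes averaging 1 FPKM or more in the compared set, two-sided, with adjustment over all genes tested; other steps used Python 3.11.15. The planned design named a count test only if the files held counts. The test was checked on simulated data. Each library of a group is from its own mouse. The members, their grouping and the lists were chosen with earlier results of these data known, so no list was tested. Genes named are those with the smallest p of each list (up to 4), those passing in any comparison, the 3 most abundant, and fixed paralogue pairs; Eif3a, Eif3b, Eif3c, Eif3j1, Eif3j2, Eif4e, Eif4e1b and Eif5 were given values, and Eif3d and Eif3i named, after their values were seen.

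By the labels, libraries with the same number within a treatment come from 1 mouse, so the mouse is a true block between regions; deviations of those pairs from their group means correlated at 0.174, 0.256 and 0.300 in irradiated and 0.290, -0.006 and 0.054 in control mice. Irradiated and control libraries with the same number are different mice; their deviations correlated at 0.141, 0.120 and 0.117 in prefrontal cortex and 0.103, -0.017 and -0.160 in hippocampus.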

Additional observations from a re-analysis of the deposited data

How the results depend on the processing

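Tried were a pseudocount of 0.1, no filter, equal FPKM totals, median ratio scaling, removal of a length trend, the replicate block, 1 fit of all 12 libraries, robust moderation, and leaving out each library or mouse. No member passed in either region or in the interaction under any of them. The median of the members in hippocampus, -0.0667, was 0.0186 with equal totals and -0.0265 without the length trend, and in prefrontal cortex, -0.0276, was 0.0452 with equal totals; equal totals put the median of all genes at 0.0677 and 0.0705. With the replicate block 0 members passed in hippocampus, in prefrontal cortex and in the interaction, and 2 lower and 0 higher members of hippocampus had an unadjusted p under 0.05. Between regions of control mice 9 members passed with the block too, Eif4g3 in place of Eif2ak2. Between regions 9 members passed in control mice, 5 in irradiated mice, and 1 to 7 with a control mouse left out (of the 7, 4 were among the 9). Over all genes 3922, 3758, and 2269 to 3272 passed in these fits. The irradiated mice gave -0.0211 for Eif3m, reversing its sign, and the cause was not tested. Eef1a2 missed the threshold with median ratio scaling (adjusted p = 0.0508) and without the filter (0.0910), and Eif2ak2 with equal totals (0.0713) and a pseudocount of 0.1 (0.0561), all in limma. The 4 lower members of hippocampus at an unadjusted p under 0.05 numbered 1, 3 and 9 without control mouse 1, 2 and 3, and 2, 2 and 7 without irradiated mouse 1, 2 and 3; the 2 of prefrontal cortex numbered 4, 2 and 1, and 1, 1 and 2. With equal totals hippocampus had 0 lower members by this rule and 3 higher ones (Eif4ebp2, Eif4g1 and Eif5a2). Prefrontal cortex then had 1 lower member (Eif3h) and 3 higher ones (Eif2ak3, Eif4ebp2 and Eif4g2). These counts are to be read against the shift of all genes under equal totals. Without the length trend, 5 members were lower and 0 higher in hippocampus, and 2 and 0 in prefrontal cortex. For the counts at an unadjusted p in these other fits, the shares of all genes by the same rule were not taken. How far all genes moved along with the members is therefore not shown. Read counts were not used here, so small differences of genes near 1 FPKM are the least certain.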
